A study of Homo sapiens with 6 samples.

Results

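The genes described here are 9 intestinal identity and differentiation genes, chosen by name as rows of the expression table: the transcription factors CDX1, CDX2 and HNF4A, the brush border gene VIL1, the mucin MUC13, the adhesion genes CEACAM1, CEACAM5 and CEACAM6, and the lipid-binding gene FABP1. All 9 were found, each once, among the 58735 genes of the table. No measured value entered the choice of the names by rule, but results of these data were known when the list was made.

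The cells were HCT116SCs, which are HCT116 colorectal cancer cells positive for CD44 and CD326 by sorting and grown as tumor spheres in serum-free medium with EGF, bFGF and B27. In the NC group (n = 3 libraries, genotype label WT) they were transfected with negative control siRNA, and in the siPSCA group (n = 3 libraries, genotype label PSCA knockdown) with siRNA against PSCA. Both groups received liposomal reagent and were harvested after 48 h. The line is the only source of cells, and the siRNA sequence used for sequencing was not named in the text used here. The titles of siPSCA 2 and siPSCA 3 give other numbers after HCT than the rest of their labels, which name HCT116. Nothing states that libraries of a group came from separate cultures, so p-values measure only the spread between these libraries.

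CDX1 and CDX2 are caudal-type homeobox transcription factors that give the intestinal epithelium its identity, and HNF4A is a nuclear receptor that drives enterocyte genes together with them. Their known targets include genes of the mature absorptive cell, among them those for villin (VIL1), which bundles actin in microvilli, and for FABP1, which carries fatty acids in the cytoplasm. CEACAM5 and CEACAM6 encode membrane-anchored glycoproteins of the colonic surface, CEACAM1 a transmembrane relative that signals through its cytoplasmic tail, and MUC13 a transmembrane mucin of the apical surface.

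Reads on genes numbered 16099716 to 17302219 per library, and each read on 1 kilobase of gene was worth 0.0549 to 0.0595 FPKM, a unit that scales reads by gene length and library total. PSCA itself had 4, 12 and 15 reads in NC and 9, 9 and 7 in siPSCA (log2 fold change -0.07, SE 0.12, adjusted p = 0.728 from limma), so its reads do not tell the groups apart and the groups follow the labels. The gate markers stood high, with CD44 between 59.6 and 87.5 FPKM and EPCAM, which encodes CD326, between 93.3 and 123 FPKM. CD44 fell in siPSCA from 82.6 ± 4.36 to 60.7 ± 1.51 FPKM (SD, n = 3 each; log2 fold change -0.44, SE 0.05, adjusted p = 0.00193 from limma), and CDH1, which encodes the epithelial adhesion protein E-cadherin, fell from 30.1 ± 2.04 to 19.5 ± 0.610 FPKM (log2 fold change -0.60, SE 0.06, adjusted p = 0.00134 from limma). Both calls held in 16 of 16 alternatives, while EPCAM had a log2 fold change of -0.16 (SE 0.10, adjusted p = 0.199 from limma). Of the 6 listed markers of the sorted line, 2 fell, against 24.2% of all tested genes, and 2 rose, against 26.6%. KRT19 rose from 311 ± 9.38 to 370 ± 6.85 FPKM (SD, n = 3 each; log2 fold change 0.25, SE 0.05, adjusted p = 0.00589 from limma). KRT8 rose from 178 ± 3.26 to 208 ± 5.52 FPKM (log2 fold change 0.22, SE 0.04, adjusted p = 0.00848 from limma). NC 3 stood apart from NC 1 and NC 2 in step with GC content (Spearman correlation -0.56 over genes, which are no independent replicates). The fold change of siPSCA against NC also rose with GC content (Spearman correlation 0.66 over genes), and for that reason values with this trend removed are given beside each tested member. With the trend on GC content and length removed, KRT19 and KRT8 had log2 fold changes of -0.25 and -0.053. Neither was then called (adjusted p = 0.0961 and 0.450 from limma).

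Reads on the 9 members were sparse in these cells, and CDX2 had the highest level among them. Of the 9 members, 3 passed the minimum mean of 1 FPKM over the 6 libraries that was set for testing (CDX2, HNF4A and CEACAM1), 2 had reads but stayed below it (MUC13 and VIL1), and 4 were listed at 0 in every library (CDX1, CEACAM5, CEACAM6 and FABP1). Of the 54 library values, 25 were 0. Of the 3 tested members, 2 rose in siPSCA at an adjusted p under 0.05, CDX2 and HNF4A, and 0 fell. Over all 13796 tested genes, 26.6% rose and 24.2% fell at that threshold. With the trend on GC content and length removed, 1 member rose, CDX2, against 21.2% of genes that rose and 18.7% that fell. In each of the 3 tested members every siPSCA library lay above every NC library, a pattern shown by 33.7% of tested genes. CEACAM1 reached the minimum only through its siPSCA libraries, because its NC mean was below 1 FPKM, so these counts describe the members that could be tested and not the whole list. In bulk RNA, fewer cells of a type and less RNA per cell cannot be told apart.

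**Figure D1:**
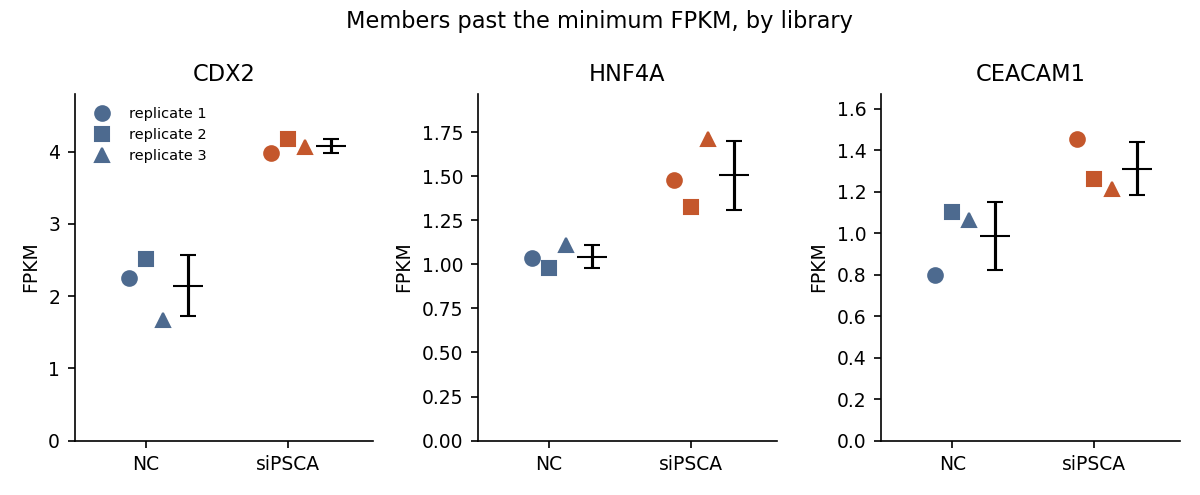
FPKM (vertical axes, from 0) of CDX2, HNF4A and CEACAM1 in each NC and siPSCA library, with the mean and SD (n = 3) to the right of each group. All 3 siPSCA points lie above all 3 NC points for each gene, and CDX2 shows the widest gap.

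CDX2 (ENSG00000165556, chr13:27962137-27971139, minus strand, GRCh38) had the highest level of the 9 genes in every library. Its FPKM was 2.25, 2.51 and 1.68 in NC 1, NC 2 and NC 3 and 3.99, 4.18 and 4.06 in siPSCA 1, siPSCA 2 and siPSCA 3, from 119 to 180 reads in NC and 278 to 306 in siPSCA. The siPSCA libraries lay close together, and NC 3 was the lowest of all 6. The mean rose from 2.15 ± 0.426 (SD, n = 3) to 4.07 ± 0.0961 (SD, n = 3) FPKM, a 1.90-fold ratio of means. On the log2(FPKM + 1) scale, which understates changes of low genes, the log2 fold change was 0.70 (SE 0.11, 95% confidence interval 0.43 to 0.96, adjusted p = 0.00387 from limma). An exact 2-sided permutation test of the 6 values gave p = 0.1, the smallest that 3 libraries against 3 allow.

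Without NC 3 the ratio of CDX2 means was 1.71-fold and the log2 fold change 0.59 (adjusted p = 0.00106 from limma). CDX2 transcripts are GC-rich (56.4%), and among the 451 tested genes with 55% to 57.5% GC and a mean of 1 to 5 FPKM the median log2 fold change was 0.19, with CDX2 above 95.8% of them. With the trend on GC content and length removed, the CDX2 log2 fold change was 0.40 (SE 0.07, adjusted p = 0.00624 from limma). From recovered reads with limma-voom, where no FPKM pseudocount lowers it, the value was 0.97 (SE 0.15, adjusted p = 0.00104), while 30.2% of genes rose in that fit. CDX2 passed the threshold in all 15 alternatives that were run for it, at log2 fold changes of 0.35 to 0.97. The fall of CD44 and CDH1 and the rise of KRT19 and KRT8 given above went with the rise of CDX2. Whether any of these changes had a part in the rise of CDX2 was not tested.

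Among the 193 genes that the table assigns to the homeobox family, 65 could be tested, of which 23 rose and 7 fell (16 and 12 with the trend removed). Over all tested genes 26.6% rose and 24.2% fell, or 21.2% and 18.7% with the trend removed. CDX2 ranked 11 of the 65 by fold change. By mean FPKM, CDX2 ranked 37 of these 193 genes in NC and 29 in siPSCA. Its paralog CDX1 (ENSG00000113722, chr5:150166795-150184558, plus strand) was listed at 0 in every library. The exons of CDX1 share no base with another gene, and a count of 0 allows up to 3 reads, or 0.0937 to 0.102 FPKM in these libraries, for counting error only. The highest levels among the other intestinal transcription factors belonged to SOX9, a factor of crypt progenitor cells, TCF7L2, the Wnt effector, and HOXA9, a positional homeobox gene, with means of 49.9, 41.7 and 18.9 FPKM over the 6 libraries.

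HNF4A (ENSG00000101076, chr20:44355700-44434596, plus strand) stood lower than CDX2 in all 6 libraries. Its FPKM was 1.03, 0.982 and 1.11 in NC and 1.48, 1.32 and 1.71 in siPSCA, from 125 to 140 and 172 to 228 reads. The groups did not overlap, and siPSCA 3 was the highest. The mean went from 1.04 ± 0.0653 to 1.51 ± 0.195 FPKM (SD, n = 3 each), 1.44-fold, with a log2 fold change of 0.29 (SE 0.10, 95% confidence interval 0.05 to 0.53, adjusted p = 0.0494 from limma). This call lay just inside the threshold. It held in 1 of the 15 alternatives, limma-voom on recovered reads (0.55, SE 0.14, adjusted p = 0.0098), and was lost when any single library was left out (adjusted p = 0.0613 to 0.151 from limma). With the trend on GC content and length removed, the HNF4A log2 fold change was 0.15 (SE 0.10, adjusted p = 0.305 from limma). Among the 481 tested genes of 52.5% to 55% GC and a mean of 1 to 5 FPKM, HNF4A lay above 69.4%.

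The table gives 1 value per gene, so transcripts from the alternative HNF4A promoters cannot be told apart. Of the 11 genes in the RXR-like family to which the table assigns HNF4A, 8 were tested, of which 4 rose and 2 fell (0 and 2 with the trend removed). The shares over all tested genes were 26.6% and 24.2%, or 21.2% and 18.7% with the trend removed. HNF4A ranked 8 of the 11 by mean FPKM in both groups, below genes such as NR2F1, NR2F2 and NR2F6. The ratio of CDX2 to HNF4A FPKM, both per length, was 2.18, 2.55 and 1.51 in NC and 2.69, 3.16 and 2.37 in siPSCA. These ratios overlapped between the groups, since siPSCA 3 lay below NC 2.

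**Figure D2:**
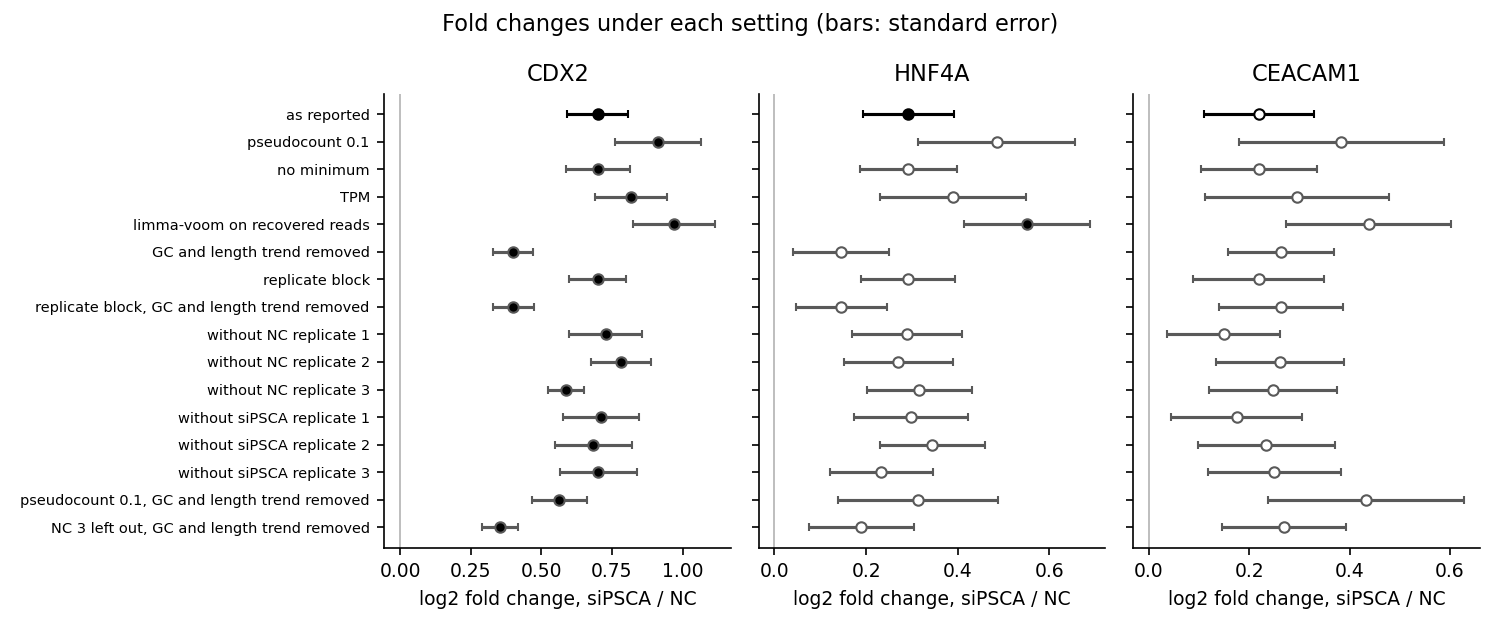
Log2 fold change of siPSCA against NC (horizontal axes) of CDX2, HNF4A and CEACAM1 as reported and under each alternative, with bars for the standard error and filled points for an adjusted p under 0.05. CDX2 stays filled throughout, HNF4A is filled as reported and with limma-voom, and CEACAM1 is never filled.

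The CEACAM members parted sharply in level. CEACAM1 (ENSG00000079385, chr19:42507304-42561234, minus strand) was the only one of the 3 with reads, whereas CEACAM5 (ENSG00000105388, chr19:41708585-41729798, plus strand) and CEACAM6 (ENSG00000086548, chr19:41750977-41772208, plus strand) were listed at 0 in all 6 libraries. Sequence upstream of the RefSeq start (GRCh38.p14) is printed for these related genes, to set it side by side. FABP1 is printed beside them as a known target of caudal-type and HNF4 factors. Each stretch runs from 250 bases before the start up to the first base that any GENCODE 29 exon covers. The stretches lie at chr19:42528510-42528731 for CEACAM1 (minus strand), chr19:41708376-41708584 for CEACAM5 (plus strand), chr19:41755280-41755420 for CEACAM6 (plus strand) and chr2:88128117-88128312 for FABP1 (minus strand). Capitals mark 3 motifs on either strand: TTTAT, a core of caudal-type homeobox sites, CAAAG, a core of HNF4 sites, and TATAAA, the TATA box, which contains the reverse complement of TTTAT.
CEACAM1: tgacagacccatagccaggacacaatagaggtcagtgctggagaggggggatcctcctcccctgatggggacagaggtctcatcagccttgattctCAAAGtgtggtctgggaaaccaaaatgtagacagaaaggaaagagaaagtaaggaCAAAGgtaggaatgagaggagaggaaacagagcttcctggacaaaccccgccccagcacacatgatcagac
CEACAM5: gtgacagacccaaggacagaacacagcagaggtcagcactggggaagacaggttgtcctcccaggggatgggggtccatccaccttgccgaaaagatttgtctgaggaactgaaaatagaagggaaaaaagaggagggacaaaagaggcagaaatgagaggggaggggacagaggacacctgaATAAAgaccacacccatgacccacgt
CEACAM6: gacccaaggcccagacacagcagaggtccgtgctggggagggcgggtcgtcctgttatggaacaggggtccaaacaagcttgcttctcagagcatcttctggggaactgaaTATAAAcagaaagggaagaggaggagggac
FABP1: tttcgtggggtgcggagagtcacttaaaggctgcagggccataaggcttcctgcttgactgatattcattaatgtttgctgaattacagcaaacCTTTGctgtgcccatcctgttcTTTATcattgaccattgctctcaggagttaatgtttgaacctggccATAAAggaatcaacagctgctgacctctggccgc

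The CEACAM1 stretch held 2 CAAAG cores and no TTTAT, those of CEACAM5 and CEACAM6 held 1 TTTAT each and no CAAAG, with the one in CEACAM6 lying inside a TATA box, and that of FABP1 held 2 TTTAT and 1 CAAAG. The cut at the first exonic base leaves out motifs nearer the start. Over the full 250 bases FABP1 held 3 TTTAT, 1 CAAAG and 1 TATA box, which begins 31 bases before the start. CEACAM1 held 3 CAAAG over that length. These letters are common: among 35116 windows of 250 bases before RefSeq starts, 32.7% held TTTAT, 42.1% CAAAG and 10.7% TATAAA. Those windows include exonic bases, whereas the printed stretches do not and are shorter, at 141 to 222 bases. A match is a description of letters and not a site. Over the full 250 bases, CEACAM5 and CEACAM6 were identical at 73.6% of aligned positions, CEACAM1 and CEACAM6 at 67.6%, and CEACAM1 and CEACAM5 at 64.4%. No value for unrelated genes is given beside these, so they only order the pairs. The table used here has such a sequence for 7 of the 9 members, with none for CDX1 and VIL1, and the 250 bases of CDX2 lie wholly in an annotated exon of a longer CDX2 transcript and are not shown. The HNF4A and MUC13 sequences are not printed either. None of the motifs occurred before either HNF4A start, and MUC13 held 2 CAAAG.

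CEACAM1 had 0.797, 1.10 and 1.06 FPKM in NC and 1.46, 1.26 and 1.21 in siPSCA, from 74 to 106 and 122 to 136 reads. The groups did not overlap, though NC 2 and siPSCA 3 were close. The mean was 0.987 ± 0.165 in NC and 1.31 ± 0.128 in siPSCA (SD, n = 3 each), 1.33-fold, with a log2 fold change of 0.22 (SE 0.11, 95% confidence interval -0.05 to 0.48, adjusted p = 0.138 from limma). The difference did not pass the threshold, nor in any of the 15 alternatives (adjusted p = 0.0522 to 0.326). With the trend on GC content and length removed it was 0.26 (SE 0.11, adjusted p = 0.0914 from limma). In level CEACAM1 and HNF4A could not be ordered, since their FPKM ranges overlapped within each group.

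In CEACAM5 and CEACAM6 a count of 0 allows up to 3 reads, or 0.0491 to 0.0533 FPKM for CEACAM5 and 0.054 to 0.0585 for CEACAM6. A 0 in this table can also come from shared exons: EEF1G and TOMM6, which every cell uses, are listed at 0, and 99.9% and 100% of their exonic bases overlap another gene. CEACAM5 shares 16.2% of its exonic bases with AC243967.1 and CEACAM6 5.64%, and 20.4% and 7.92% of their 50-base windows also occur in other genes. How reads that fit several genes were counted was not given in the sources used here, and its part in these zeros was not tested. Of the 9 other CEACAM genes listed, 5 were at 0 and 1 was tested, CEACAM19, a little-studied relative. CEACAM19 rose from 1.41 ± 0.176 to 2.02 ± 0.245 FPKM (SD, n = 3 each; log2 fold change 0.33, SE 0.10, adjusted p = 0.0376 from limma), but with the trend removed its value was 0.11 (adjusted p = 0.405 from limma), and the call held in 4 of 15 alternatives. CEACAM1 made up 32.9% to 46.2% of the summed FPKM of the 12 CEACAM genes and CEACAM19 52.7% to 66.1%.

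**Figure D3:**
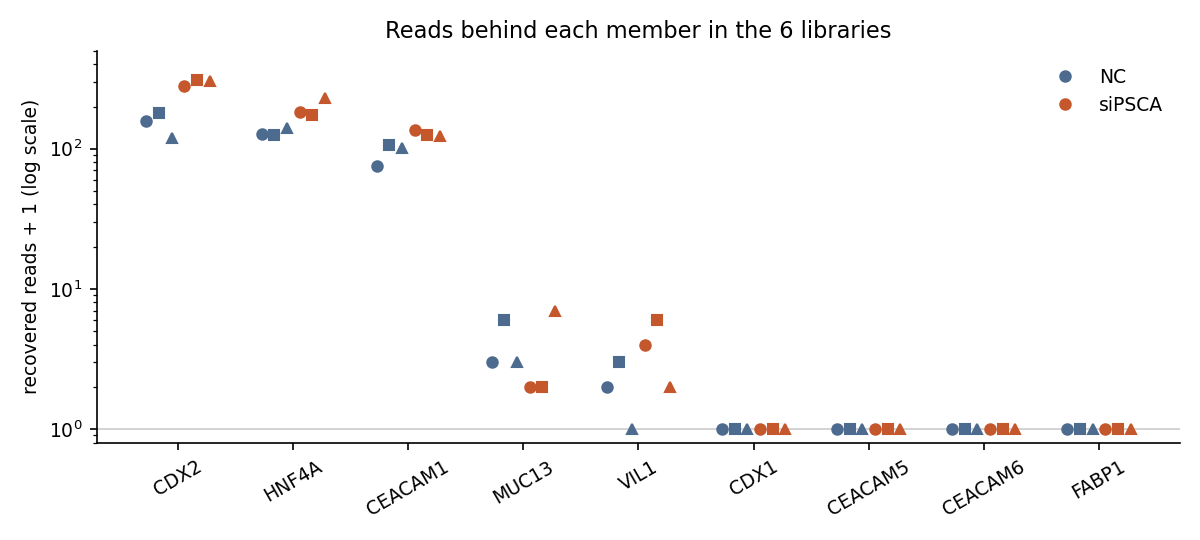
Recovered reads plus 1 (vertical axis, log scale) of the 9 members in each NC and siPSCA library, with circles, squares and triangles for replicates 1, 2 and 3. CDX2, HNF4A and CEACAM1 have 74 reads or more in every library, MUC13 and VIL1 have 6 reads or fewer, and the other 4 genes lie on the line of 0 reads.

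MUC13 (ENSG00000173702, chr3:124905442-124953819, minus strand) was near the detection limit. It had 2, 5 and 2 reads in NC and 1, 1 and 6 in siPSCA, or 0.034, 0.0821 and 0.0332 against 0.0169, 0.0161 and 0.0941 FPKM. The groups overlapped fully. The 17 summed reads gave a ratio of siPSCA to NC of 0.864 with an exact binomial 95% interval of 0.29 to 2.52, and changes within these bounds were not detectable at this depth. MUC13 made up 0.495% to 2.85% of the summed FPKM of 17 mucin genes. Of the 16 others, only MUC1, a transmembrane mucin, was tested, and its level was 1.37 ± 0.339 in NC and 1.19 ± 0.122 FPKM in siPSCA (SD, n = 3 each; log2 fold change -0.11, SE 0.13, adjusted p = 0.526 from limma). MUC1 is GC-rich (71.2%), and with the trend on GC content and length removed its log2 fold change was -1.06 (adjusted p = 0.00489 from limma), with values of -0.88 to -1.35 and a call in the 4 of 15 alternatives that remove the trend.

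VIL1 (ENSG00000127831, chr2:218419092-218453295, plus strand) was as near the limit, with 1, 2 and 0 reads in NC and 3, 5 and 1 in siPSCA. Its FPKM was 0.0086, 0.0166 and 0 in NC and 0.0256, 0.0407 and 0.00793 in siPSCA, and the groups overlapped. The ratio from 9 against 3 reads was 2.92 with an exact binomial 95% interval of 0.728 to 16.8. USP37 on the opposite strand covers 44.0% of the exonic bases of VIL1, and since strand was not stated for the counting, reads of the pair may not have been told apart. VIL1 reached at most 0.0214% of the FPKM of EZR, which encodes ezrin, the linker of microvillar actin to the membrane. Values of VIL1 and MUC13 overlapped across libraries, so their order is not resolved.

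FABP1 (ENSG00000163586, chr2:88122982-88128116, minus strand) was listed at 0 in all 6 libraries, where 3 reads would be 0.0667 to 0.0723 FPKM, and its exons share no base with another gene. Within its family the reads lay on FABP5, the epidermal form, which held 89.5% to 92.6% of the summed FPKM of 9 FABP genes. FABP5 rose from 41.6 ± 2.02 to 49.6 ± 3.77 FPKM (SD, n = 3 each; log2 fold change 0.25, SE 0.07, adjusted p = 0.0276 from limma), a call that held in 7 of 16 alternatives.

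In order of FPKM, which is per length, CDX2 came first, HNF4A and CEACAM1 followed together, and MUC13, VIL1 and the 4 genes listed at 0 came last. The order within this last set is not resolved. In the genes listed at 0, 3 reads would be 0.0491 to 0.102 FPKM, above every VIL1 value (at most 0.0407 FPKM). Among genes with a read, CDX2 stood above 68.1% in NC and 75.4% in siPSCA, HNF4A above 60.0% and 64.8%, and CEACAM1 above 59.3% and 63.4%.

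Genes that act with the members gave calls in both directions, at shares read against the 26.6% of tested genes that rose and the 24.2% that fell. Of 23 other intestinal transcription factors, 14 were tested, of which 3 rose and 4 fell, near those shares, with a median log2 fold change of -0.13 beside 0.01 over all tested genes. The largest rises were those of VDR, the vitamin D receptor (2.82 ± 0.160 to 5.32 ± 0.319 FPKM), and GATA6, a zinc finger factor of endoderm (1.40 ± 0.198 to 2.83 ± 0.217 FPKM), and the largest falls those of ELF3, an epithelial ETS factor (2.44 ± 0.386 to 1.27 ± 0.0436 FPKM), and ONECUT2, a homeobox factor (2.82 ± 0.260 to 1.62 ± 0.223 FPKM; SD, n = 3 each). With the trend removed the counts were again 3 and 4, although ONECUT2 then had an adjusted p of 0.0797 from limma. CDX2 had a log2 fold change (0.70) near those of VDR (0.73, SE 0.07) and GATA6 (0.68, SE 0.09), a comparison made after the values were seen.

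Of 22 other brush border genes, 14 were tested, of which 5 rose and 5 fell, with a median log2 fold change of 0.25; the shares over all tested genes are those just given. ESPN, an actin bundler like villin, rose from 10.5 ± 3.38 to 21.7 ± 1.08 FPKM and EPS8L2, an actin-capping relative, from 18.4 ± 5.77 to 34.3 ± 1.20 FPKM, while EZR fell from 234 ± 8.42 to 193 ± 4.48 FPKM (SD, n = 3 each). The fold change of ESPN was 1.02 on the log2 scale (SE 0.22, adjusted p = 0.0117 from limma) and 0.18 with the trend removed (adjusted p = 0.0362), and this trend-removed call was lost with the replicate block (adjusted p = 0.0762), without NC 3 (0.16, adjusted p = 0.0617) and at a pseudocount of 0.1 (0.041, adjusted p = 0.678). The fold change of EPS8L2 was 0.91 on the log2 scale (SE 0.22, adjusted p = 0.0168 from limma) and 0.33 with the trend removed (adjusted p = 0.0335), or 0.23 without NC 3 as well. With the trend removed the list held 4 rises and 3 falls at a median of -0.02, against 21.2% and 18.7% of all genes. The whole list summed to between 376 and 391 FPKM in NC and between 377 and 387 in siPSCA, against at most 0.0407 FPKM for VIL1.

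Most genes of mature cells stayed below the minimum, but some stood above every member. The 35 enterocyte and colonocyte genes summed to 20.2 to 25.7 FPKM over the 6 libraries, and CA2, DPP4 and KRT20, a keratin of mature colonic epithelium, had means of 5.41, 5.32 and 5.15 FPKM beside 3.11 for CDX2. Of these 35 enterocyte and colonocyte genes 5 were tested, of which 0 rose and 2 fell: DPP4, a brush border peptidase (6.41 ± 0.801 to 4.24 ± 0.389 FPKM), and SLC15A1, the peptide transporter (1.37 ± 0.199 to 0.781 ± 0.123 FPKM; SD, n = 3 each). The call of DPP4 held in 16 of 16 alternatives and that of SLC15A1 in 5 of 15, and SLC15A1 passed the minimum only through NC, the group where it was high. With the trend removed 1 rose, CA2, which encodes a carbonic anhydrase of absorptive cells (log2 fold change 0.33, adjusted p = 0.0451 from limma), and 2 fell. Of 17 goblet cell genes 1 was tested, SYTL2, with 1.89 ± 0.181 FPKM in NC and 0.966 ± 0.128 in siPSCA (SD, n = 3 each). SYTL2 too passed the minimum only through NC, where it was high, and nothing is read from its fall. Of 19 enteroendocrine, Paneth and tuft cell genes 0 reached the minimum. HNF4A and FABP1 are also hepatocyte genes and CDX2 marks intestinal metaplasia of the stomach, and markers of those tissues were at or near 0: the 10 hepatocyte markers summed to 0.334 to 0.669 FPKM over the 6 libraries and the 8 gastric markers to 0.599 to 1.000, with 2 and 1 of them at 0. The 9 fibroblast markers summed to 4.34 to 6.49 FPKM in NC and 7.06 to 7.51 in siPSCA, mostly from COL1A1, and 2 were at 0. COL1A1, the only 1 of them tested, was not called (log2 fold change 0.35, SE 0.16, adjusted p = 0.111 from limma). With the trend removed the COL1A1 value was -0.077 (adjusted p = 0.464 from limma). The 11 leukocyte and endothelial markers summed to 0.310 to 0.698 FPKM with 3 at 0. Among those at 0 is CD68, which shares 85.8% of its exonic bases with another gene. The line was the only source of cells, and whether any other cell type had a part in the rise of CDX2 was not tested.

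The GC content of the 3 tested members, taken from the longest transcript, was 56.4% for CDX2, 52.8% for HNF4A and 47.2% for CEACAM1. In the bins of 2.5 percentage points that hold them, all tested genes had median log2 fold changes of 0.29, 0.19 and -0.07. CDX2 lay above 91.2%, HNF4A above 64.8% and CEACAM1 above 86.0% of the genes in its bin. CEACAM1 passed the minimum only through siPSCA, the group where it was high, so nothing is read from its place. The fold changes of HNF4A and CEACAM1 lay within their standard errors of each other, and their difference was not tested.

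**Figure D4:**
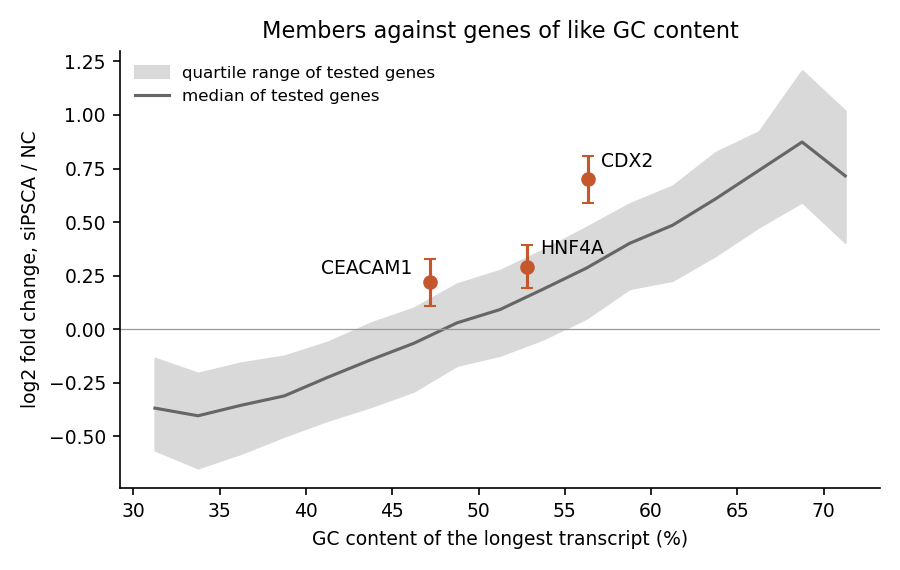
Log2 fold change of siPSCA against NC (vertical axis) against GC content of the longest transcript in percent (horizontal axis), with the line for the median and the band for the quartile range of tested genes in bins of 2.5 percentage points, and points with standard errors for the tested members. CDX2 and CEACAM1 lie above the band and HNF4A within it. CEACAM1 passed the minimum only through siPSCA, where it was high.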

How the data were processed

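RNA of 6 libraries, 3 NC and 3 siPSCA, was sequenced after preparation with the NEBNext Ultra RNA kit. The authors deposited 1 table of FPKM values per gene with gene length, position and name. The aligner, the counting program and the use of strand were not given in the sources used here, and the submitters' processing notes name GRCh38. Starts, ends and exonic lengths of 58724 of 58735 genes were those of GENCODE release 29. FPKM multiplied by gene length gave whole reads for 100% of values within 0.02 reads, with library totals of 16803235 to 18218661.

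With R 4.3.3 and limma 3.58.1, log2(FPKM + 1) of the 13796 genes whose mean FPKM reached 1 was fitted by lmFit on the group alone, followed by eBayes with trend. p-values are 2-sided and were adjusted over these genes after Benjamini and Hochberg. MUC13, VIL1 and PSCA were taken from this model refitted without a minimum (34391 genes with reads). Single values were compared by exact permutation (scipy 1.17.1), and read ratios by exact binomial intervals of 95%. Intervals and floors (3 reads) cover counting error only.

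The alternatives were a pseudocount of 0.1, no minimum, a minimum FPKM of 5, TPM, limma-voom on recovered reads, removal of a loess trend on GC content and log10 length (span 0.3), the replicate number as a block, and each library left out. Chosen after the data were seen were the trend removal at a pseudocount of 0.1 and without NC 3. Only the fit on the group alone was tested on simulated data, with independent noise and no GC trend. All members are reported, and from each other list up to 3 genes of highest mean FPKM and up to 2 of the largest rises and falls past the threshold were eligible for naming. EPCAM, PSCA, and EEF1G, TOMM6 and CD68 as examples of zeros, were named outside this rule. USP37 and AC243967.1 are named for their overlap with members. The members and lists were chosen with earlier results of these data known. Promoter sequences are from RefSeq, aligned with Biopython 1.88.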

Additional observations from a re-analysis of the deposited data

How the results depend on the processing

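CDX2 kept its direction and its call in all 15 alternatives. The number of members that rose, 2 as reported, was 2 with limma-voom on recovered reads and 1, CDX2, with a pseudocount of 0.1, with no minimum, with TPM, with the GC and length trend removed, with the replicate block, with both, with the trend removed at a pseudocount of 0.1 or without NC 3, and with any single library left out. It was HNF4A that was lost each time. No member passes a minimum FPKM of 5, so that alternative gives no member value. No member fell in any of these fits. MUC13, from few reads, ranged from -0.046 to 0.011 in log2 fold change over the libraries left out and was above 0 without NC 2, siPSCA 1 or siPSCA 2; HOXA9 ranged from -0.090 to 0.029.

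Over all tested genes, 3668 rose and 3333 fell as reported. With the replicate block and the trend removed 2429 rose and 2217 fell, with a minimum FPKM of 5 2140 fell among 7630 tested, and with single libraries left out 2299 to 4014 rose, with the lowest counts without siPSCA 1 and siPSCA 2 (2402). The replicate numbers were not shown to pair the samples: deviations of same-numbered libraries correlated at 0.096, 0.013 and 0.134, and NC 2 correlated better with siPSCA 1 (0.036) than with siPSCA 2. With the replicate block alone 3572 genes rose and 3153 fell, and HNF4A had an adjusted p of 0.0766 from limma.

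Among other genes eligible for naming, TCF7L2 turned to -0.024 with TPM and EPS8 to 0.018 with the trend removed at a pseudocount of 0.1. With the trend removed, with the replicate block added, at a pseudocount of 0.1 and without NC 3, the log2 fold changes were -0.17, -0.17, -0.25 and -0.18 for SLC9A3R1, -0.25, -0.25, -0.35 and -0.14 for KRT19, -0.053, -0.053, -0.098 and -0.0050 for KRT8, and -0.077, -0.077, -0.10 and -0.15 for COL1A1, all above 0 as reported. The cause was not tested. The median of all tested genes moved by less than 0.1 under TPM, voom and trend removal. Depth limits MUC13, VIL1 and the 4 genes listed at 0.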
